A study of Mus musculus with 13 samples.

Results

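The 4 arrays of Stella-positive cells sorted from day 7 mouse embryoid bodies are described here, out of the 13 arrays of the series, and the subject is how they differ among themselves. Arrays 1 and 2 were set against arrays 3 and 4. The pairs were chosen by measured values of these same arrays, namely their overall brightness and the level of transcripts of other lineages, so every difference between the pairs is given as a description and with no test. The cells carried StellaGFP, a green fluorescent reporter of Stella, the protein made by Dppa3. The labels call the Stella-positive day 7 cells in vitro primordial germ cells and the Stella-negative day 7 cells (n = 2) not germ cells. The other groups were sorted Stella-negative embryonic stem cells (ESC, n = 3), sorted Stella-positive ESC (n = 2) and unsorted StellaGFP ESC (n = 2). Whether replicates were grown as separate cultures is not stated, so the tests below cover the spread among arrays only, and that spread could be technical.

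Embryoid bodies are aggregates in which ESC lose pluripotency and form derivatives of all germ layers side by side with a small number of germ-cell-like cells. Their outer layer resembles the visceral endoderm of the yolk sac, an epithelium that takes up nutrients and secretes carrier proteins such as transthyretin, alpha-fetoprotein and apolipoproteins. Beneath it arise blood islands with primitive red cells, which carry embryonic globins, together with endothelium and beating heart muscle. Primordial germ cells keep several pluripotency genes active and turn on germ cell genes, and Stella is one of their classical markers, although ESC and other early cells make it too. A sorted fraction is enriched rather than pure. In bulk RNA a smaller number of cells of a type and less RNA per cell cannot be told apart, and neither can other cells that passed the gate and transcripts made by the reporter-positive cells themselves.

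The 4 arrays differed in brightness before any scaling. The trimmed mean of the deposited signal, which leaves out 2% of probe sets at each end, was 82.9, 71.7, 29.1 and 8.48 on arrays 1 to 4, against 51.4 and 63.4 on the Stella-negative day 7 arrays. The control cre, a transcript normally spiked in at a fixed amount before hybridisation, read 13006, 11879, 13783 and 9992 on the same 4 arrays, so its ratio to the trimmed mean was 157, 166, 474 and 1178. Sample signal was thus lower against the spike-in on array 3, and lower again on array 4. The actin control gave a ratio of 3' to 5' signal of 2.04, 2.17, 4.89 and 5.16, against 5.48 and 5.85 on the Stella-negative arrays and 1.12 to 1.23 on the ESC arrays. Such a ratio grows when RNA is shorter or its copying stops early. Arrays 1 to 3 and Stella-negative array 2 went through 1 fluidics station in 1 run, per the array description files, whereas array 4 and Stella-negative array 1 were on other stations. The same files number the day 7 arrays opposite to the sample titles. The titles were used throughout, and the split of 1 and 2 against 3 and 4 is the same under both.

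**Figure D1:**
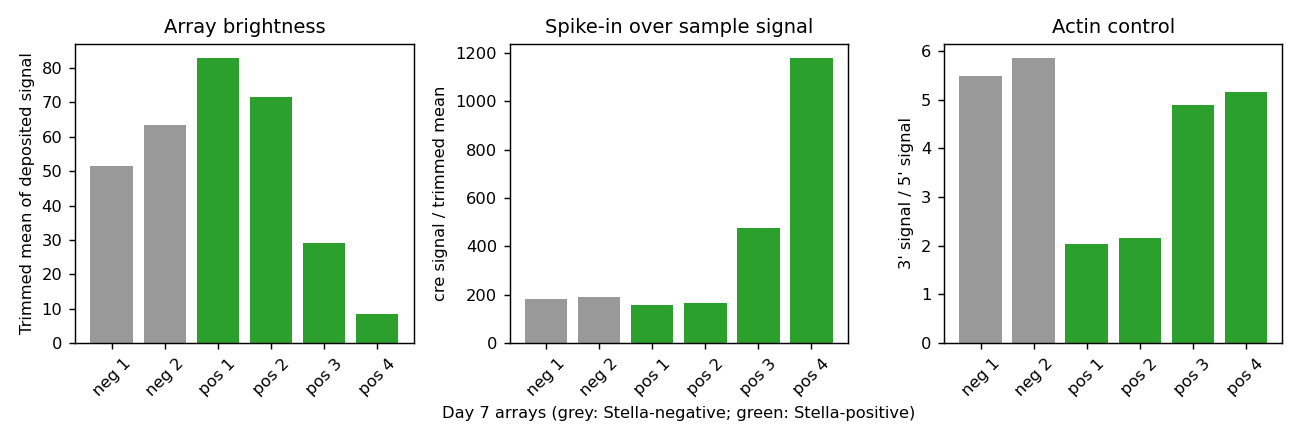
Bars show, for each day 7 array, the trimmed mean of the deposited signal (left), the cre spike-in signal divided by that mean (middle) and the actin control's 3' signal divided by its 5' signal (right), with Stella-negative arrays in grey and Stella-positive arrays in green. Stella-positive array 4 is the dimmest, at 8.48, and has the highest spike-in ratio, 1178.

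Each array was scaled to a common trimmed mean of 105.2, which multiplied the deposited values by 1.27, 1.47, 3.62 and 12.4 on arrays 1 to 4. All signals below are scaled, and differences are on the scale log2(signal + 10.5), which shrinks differences between dim values. Over 30023 probe sets the correlation between arrays was 0.953 for arrays 1 and 2, 0.916 and 0.912 for array 3 with each of them, 0.850 and 0.846 for array 4 with each of them, and 0.857 for arrays 3 and 4, a description over probe sets that share their libraries. Arrays 1 and 2 were the closest pair, and array 4 was about as far from array 3 as from arrays 1 and 2.

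A gene was counted as differing when neither pair overlapped the other and the pair means lay at least 2-fold apart. Among 14007 genes tested, 731 (5.22%) were counted as higher on arrays 1 and 2 and 747 (5.33%) as higher on arrays 3 and 4. The split changed with the scaling: 49.5% of counted genes were higher on arrays 1 and 2, but 86.3% when arrays were centred on their medians and 67.7% after quantile normalization. The median gene moved with it, from a pair difference of -0.01 to 0.38 under median centring and 0.05 under quantile normalization. Genes at the edge of the rule were Ubxn2a, just inside at a difference of 1.0002, and Ccnb1ip1, just outside at 0.997, on the side of arrays 1 and 2, and Acvr2b, just inside at -1.0003, and Mki67, just outside at -0.9996, on the other.

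Of the genes higher on arrays 1 and 2, 293 (40.1%) were also higher in Stella-negative day 7 cells than in Stella-negative ESC, by a limma test that used none of the 4 Stella-positive day 7 arrays and called 3654 genes (26.1%). Among the 747 genes higher on arrays 3 and 4 the number was 205 (27.4%). The share grew with the size of that day 7 difference. Of 450 genes called at least 4-fold higher in the Stella-negative day 7 cells, 123 (27.3%) were higher on arrays 1 and 2 and 17 (3.78%) on arrays 3 and 4. Of 35 genes called at least 16-fold higher, 28 (80%) were higher on arrays 1 and 2 and 0 on arrays 3 and 4. The 35 include Ttr, Afp and Hbb-y, transcripts of other lineages of the kind by which the pairs were chosen. These shares are therefore a description and no independent support. These 35 stood at a median of 27.7% and 27.4% of the Stella-negative level on arrays 1 and 2 and at 4.34% and 5.64% on arrays 3 and 4. All day 7 arrays were of 1 chip lot, and no ESC array shared that lot or a run with them. Lot, run and the actin ratio therefore cannot be told apart from day in the limma test used here.

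The largest differences were in genes of the yolk sac endoderm. Ttr, which encodes the carrier transthyretin, read 4072 and 4029 on arrays 1 and 2 and 26.4 and 73.7 on arrays 3 and 4, against 11349 and 12504 on the Stella-negative arrays. Afp, the gene of alpha-fetoprotein, read 2858 and 2898 on arrays 1 and 2 and 49.1 and 23.8 on arrays 3 and 4, against 6476 and 6664. In both genes arrays 1 and 2 agreed closely with each other and lay between the Stella-negative arrays and the 2 dimmer arrays, with no overlap. Between the pairs, lack of overlap is part of the rule by which genes were counted. The pair difference was 6.19 ± 0.60 (log2, SD within pairs) for Ttr and 6.0 ± 0.40 for Afp. All 3 other probe sets of Ttr pointed the same way, whereas 1 of 4 other probe sets of Afp went the opposite way by at least 2-fold.

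Secreted carriers of the same tissue followed. Rbp4, which encodes the carrier of retinol, read 1413 and 1792 on arrays 1 and 2 and 84 and 108 on arrays 3 and 4, against 4223 and 4866 on the Stella-negative arrays. Apoa1, the main protein of high-density lipoprotein, read 189 and 319 on arrays 1 and 2 and 3.46 and 4.76 on arrays 3 and 4, against 542 and 637. Spink1, a secreted trypsin inhibitor outside the endoderm list that was also among the largest bright differences, read 1460.1 and 1365 on arrays 1 and 2 and 55.3 and 56.2 on arrays 3 and 4, against 6670.3 and 6748. The order was the same in all 3 genes, and the pairs differed by 3.92 ± 0.24, 4.13 ± 0.37 and 4.42 ± 0.05 in turn. In Stella-negative ESC these genes differed in level, with Rbp4 at 37.8, 54.0 and 32.4, Spink1 at 124, 149.9 and 208, and Ttr at 0.72, 1.45 and 0.70 on the 3 Stella-negative ESC arrays.

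Over the whole endoderm list, 13 of 22 tested members were higher on arrays 1 and 2 and 0 on arrays 3 and 4, against 5.22% and 5.33% of all genes. The median pair difference was 1.16, against -0.01 over all genes. The 13 were Ttr, Afp, Apoa1, Apob, Apoc2, Apom, Rbp4, Dab2, Hnf4a, Foxa2, Foxa1, Sox17 and Fgb. Transcription factors were among them: Hnf4a, a regulator of hepatic and visceral endoderm genes, read 81.2 and 73.8 on arrays 1 and 2 and 12.3 and 9.57 on arrays 3 and 4, and Foxa2, a forkhead factor of endoderm, read 82.7 and 80.5 on arrays 1 and 2 and 15.2 and 9.54 on arrays 3 and 4. Of 3 other probe sets of Hnf4a, 1 had the same sign, and none lay 2-fold the other way. Gata6, an early factor of primitive endoderm, did not share the pattern, at 79.9, 92.1, 93.3 and 153 on arrays 1 to 4, with a difference of -0.43 ± 0.34 toward arrays 3 and 4. Cubn, Lrp2 and Amn of the same list also differed toward arrays 3 and 4, by -0.81, -0.83 and -0.46, under the 2-fold rule. Cubn read 122 and 154 on arrays 1 and 2 and 223 and 278 on arrays 3 and 4. Lrp2 read 101 and 90.2 on arrays 1 and 2 and 190 and 167 on arrays 3 and 4. Sox17, which marks both endoderm and early germ cells, read 95 and 137 on arrays 1 and 2 and 31 and 69.1 on arrays 3 and 4, with arrays 3 and 4 the lower pair (1.12 ± 0.53), although its other probe set pointed the other way. Of the 13, 3 (Afp, Apoc2 and Fgb) stepped down from arrays 1 and 2 to array 3 and to array 4, by 0.5 or more each time. So did 178 (24.4%) of the 731 genes counted on that side, a like share, and 205 of all genes (1.46%). In Rbp4 and Dab2, arrays 3 and 4 lay within 0.5 of each other, at 84 and 108 and at 273 and 237 in turn. The same held for Apoa1, Hnf4a and Foxa2, at signals of 3.46 to 15.2, near or under the constant added before log2. Differences between such dim values are shrunk, so the closeness in Apoa1, Hnf4a and Foxa2 cannot show whether array 4 fell further. The count for the list was 15 under median centring, 14 under quantile normalization, 14 without array 3 and 10 without array 4, when all Stella-positive arrays left came from 1 fluidics run. Over all genes the 731 became 1697, 1015, 1585 and 864 in turn. Array brightness, the spike-in ratio and the actin ratio divided the 4 arrays in the same way as these genes, and their part in the difference was not tested.

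The stretch just upstream of the start site is shown for 2 endoderm genes and 2 globin genes that moved together across these arrays, as RefSeq gives it on GRCm38.p6. Afp lies on the plus strand at chr5:90490464-90490713, Apoa1 on the plus strand at chr9:46228380-46228629, Hbb-y on the minus strand at chr7:103853208-103853457 and Hba-x on the plus strand at chr11:32276350-32276599, each 250 bases ending at the base before the start. Capitals mark matches to 4 motifs, searched on both strands. The letters GTTAAT are the core of the site of HNF1, a factor of liver and endoderm. Forkhead factors of endoderm read the letters TGTTTGC. The letters AGATAA are a form of the site read by blood factors of the Gata family. Blood factors of the Kruppel-like family read the letters CCACCC.
Afp: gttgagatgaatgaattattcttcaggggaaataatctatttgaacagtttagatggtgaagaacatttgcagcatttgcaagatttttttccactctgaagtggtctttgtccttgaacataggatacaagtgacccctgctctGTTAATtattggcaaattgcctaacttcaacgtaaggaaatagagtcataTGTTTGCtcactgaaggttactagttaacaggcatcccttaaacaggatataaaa
Apoa1: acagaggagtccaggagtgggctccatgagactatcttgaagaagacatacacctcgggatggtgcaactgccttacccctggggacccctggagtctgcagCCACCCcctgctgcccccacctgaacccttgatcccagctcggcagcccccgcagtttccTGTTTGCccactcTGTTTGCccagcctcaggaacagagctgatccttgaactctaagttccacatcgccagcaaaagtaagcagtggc
Hbb-y: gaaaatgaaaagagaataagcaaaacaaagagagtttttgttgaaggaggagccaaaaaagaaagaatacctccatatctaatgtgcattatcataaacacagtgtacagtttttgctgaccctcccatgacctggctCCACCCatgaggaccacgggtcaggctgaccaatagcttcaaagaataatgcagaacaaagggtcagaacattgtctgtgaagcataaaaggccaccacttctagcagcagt
Hba-x: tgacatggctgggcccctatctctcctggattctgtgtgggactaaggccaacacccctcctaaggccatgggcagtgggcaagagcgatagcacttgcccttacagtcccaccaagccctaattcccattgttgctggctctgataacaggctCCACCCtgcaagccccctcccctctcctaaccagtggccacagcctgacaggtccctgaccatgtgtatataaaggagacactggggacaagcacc
The motifs were picked with these sequences in view, and a match is a description of letters only. The Afp stretch held 1 HNF1 core and 1 forkhead match, Apoa1 held 2 forkhead matches and 1 Kruppel-like match, and each globin stretch held 1 Kruppel-like match. The letters AGATAA were in none of the 4 stretches. Other forms of the Gata site were not searched, and the related letters TGATAA stand in the Hba-x stretch and, on the other strand, in Hbb-y. Over 32851 stretches of the same length, 6.43% held the HNF1 core, 4.30% the forkhead letters, 9.99% the Gata letters and 28.1% the Kruppel-like letters.

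**Figure D2:**
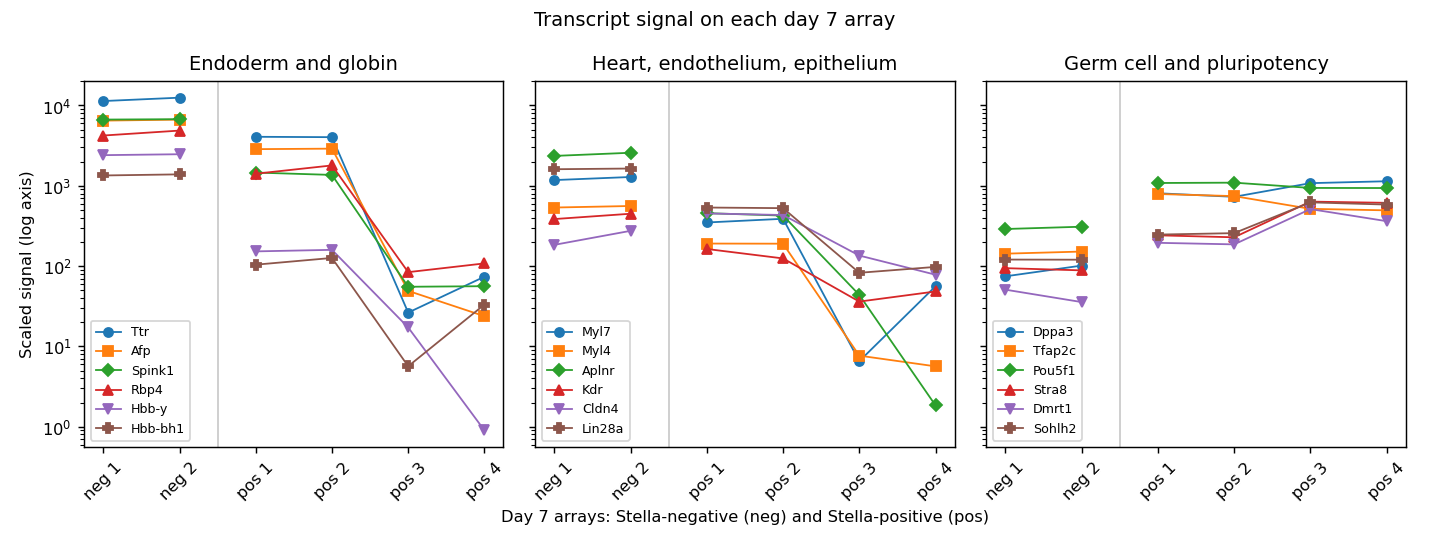
Each line joins the scaled signals of 1 gene on the Stella-negative (neg 1 and neg 2) and Stella-positive (pos 1 to pos 4) day 7 arrays, on a log axis, for genes of endoderm and blood (left), heart, vessels, epithelium and Lin28a (middle) and germ cells and pluripotency (right). In the left panel Ttr runs from 4072 and 4029 on arrays 1 and 2 to 26.4 and 73.7 on arrays 3 and 4, while Dppa3 in the right panel stays between 728 and 1138.

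Embryonic globins were a smaller share of the Stella-negative level than Ttr or Afp on arrays 1 and 2. Hbb-y, the embryonic beta-like globin of primitive red cells, read 152 and 159 on arrays 1 and 2 and 17.2 and 0.9 on arrays 3 and 4, against 2406 and 2470.0 on the Stella-negative arrays. Hbb-bh1, also of the beta cluster, read 104 and 126 on arrays 1 and 2 and 5.66 and 33.2 on arrays 3 and 4, against 1344 and 1387, and Hba-x, the embryonic alpha-like globin, read 73.9 and 55.7 on arrays 1 and 2 and 17.4 and 3.70 on arrays 3 and 4, against 313 and 317. Arrays 1 and 2 were above arrays 3 and 4 in all 3 genes, by 3.23 ± 0.64, 2.24 ± 0.73 and 1.91 ± 0.52, and all 4 arrays were below both Stella-negative arrays. As a share of the Stella-negative level Hbb-y was at 6.25, 6.53, 0.705 and 0.0369% on arrays 1 to 4, whereas Ttr was at 34.1, 33.8, 0.221 and 0.618%. The 2 transcripts therefore did not stand at 1 common share of the Stella-negative cells on arrays 1 and 2.

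The rest of the blood list did not share the globins' pattern. Of 9 tested members only those 3 globins were higher on arrays 1 and 2, and Klf1, a red cell transcription factor, was counted on the other side at 6.22, 7.45, 59.1 and 16.4 on arrays 1 to 4. Hba-a1, an alpha globin of fetal and adult red cells, was dim throughout, at 48.5, 7.31, 70.9 and 45.2 on arrays 1 to 4, and the pairs overlapped. The list's median difference of -0.54 turned to 0.18 without array 4. Among genes of macrophages and other white cells, 1 of 11 was higher on each side, against 5.22% and 5.33% of all genes. Lyz2, a lysozyme of macrophages, read 37.7, 45.5, 24.6 and 1.79 on arrays 1 to 4. C1qb, a complement subunit, read 38.6, 24.5, 72.8 and 102 on arrays 1 to 4. The Stella-negative arrays themselves lay apart for Lyz2, at 115 and 26.1.

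Genes of contractile proteins of heart muscle had the same order as the endoderm genes. Among 16 tested members of the heart and smooth muscle list 11 were higher on arrays 1 and 2, with a median difference of 1.56. The 1 member on the other side was Tagln, a smooth muscle protein. Over all genes the shares were 5.22% and 5.33%. Myl7, the atrial myosin light chain, read 349 and 388 on arrays 1 and 2 and 6.54 and 56 on arrays 3 and 4, against 1177 and 1286 on the Stella-negative arrays, and Myl4, another atrial light chain, read 191 and 190.0 on arrays 1 and 2 and 7.67 and 5.64 on arrays 3 and 4, against 536 and 560.0. Actc1, cardiac actin, read 426 and 480.5 on arrays 1 and 2 and 73.3 and 87.2 on arrays 3 and 4. These 3 genes were picked among those counted, so the lack of overlap between their pairs follows from the rule. Arrays 1 and 2 agreed within a narrow margin in each. Nkx2-5, Gata5 and Tbx20, heart transcription factors of the list, were not counted, at differences of 0.29, 0.69 and 0.48. Nkx2-5 read 49 and 83 on arrays 1 and 2 and 40.8 and 62 on arrays 3 and 4. Tbx5 was counted, but its 35.7 and 41.6 on arrays 1 and 2 were above the Stella-negative 13.6 and 23.8. The count for the list was 11 or 12 under each scaling and without array 3 or array 4. That over all genes went from 731 to 1697 in these settings.

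Several endothelial genes gave the same order. Of 16 tested, 9 were higher on arrays 1 and 2 and 0 on arrays 3 and 4, against 5.22% and 5.33% of all genes. The median difference was 1.17. Flt1, Sox18 and Robo4 were among the 7 not counted, with differences of -0.07, -0.13 and -0.49. Aplnr, the apelin receptor of endothelium and mesoderm, read 456 and 425 on arrays 1 and 2 and 43.7 and 1.84 on arrays 3 and 4, against 2354 and 2577, so that array 4 stood below array 3 as well. Cd34, a surface protein of endothelium and blood progenitors, read 68.5 and 49.5 on arrays 1 and 2 and 1.48 and 5.63 on arrays 3 and 4, and Nrp1, a coreceptor of vascular growth factor, 147 and 161 on arrays 1 and 2 and 19.6 and 54.1 on arrays 3 and 4. Kdr, the main receptor of that factor, read 163 and 124 on arrays 1 and 2 and 36.1 and 48.3 on arrays 3 and 4, a smaller gap of 1.55 ± 0.25. Pecam1, an adhesion molecule that ESC also carry, was higher on arrays 1 and 2 than on the Stella-negative arrays, at 163, 189, 70.6 and 55.9 on arrays 1 to 4 against 67 and 95.4. Its level therefore did not lie between the Stella-negative arrays and the dimmer pair.

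Epithelial genes differed as well, with a largest pair difference of 1.99, against 6.19 in the endoderm list. Of 12 tested, 8 were higher on arrays 1 and 2 and 0 on arrays 3 and 4, against 5.22% and 5.33% of all genes. The median difference was 1.26, and the 8 were Krt8, Krt18, Krt19, Epcam, Cdh1, Cldn4, Cldn6 and Cldn7. Cdh1, which encodes E-cadherin of epithelia and of pluripotent cells, read 1790.3 and 1731 on arrays 1 and 2 and 793 and 813 on arrays 3 and 4, and Epcam, an adhesion molecule of the same cells, read 1060.1 and 1171 on arrays 1 and 2 and 495 and 346 on arrays 3 and 4. Both were higher on arrays 1 and 2 than on the Stella-negative arrays (1288 and 1359 for Cdh1 and 660.0 and 843 for Epcam). Of the 22 endoderm genes, Ttpa and Cited1 had that order too, and Ttr, Afp, Rbp4 and Apoa1 were below the Stella-negative arrays. Cldn4, a tight junction protein, read 453 and 432 on arrays 1 and 2 and 135 and 78.1 on arrays 3 and 4, against 184 and 275, the same order. A subset of 4, Krt8, Krt18, Epcam and Cldn4, also stepped down from array 3 to array 4.

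The level of sorted-away lineages in each array can be read against the Stella-negative cells. For list members called higher in those cells than in ESC, the median share on arrays 1 to 4 was 33.0%, 33.8%, 11.2% and 6.63% for endoderm (19 genes), 32.5%, 34.7%, 4.55% and 4.52% for heart and smooth muscle (10 genes) and 39.2%, 32.2%, 10.1% and 11.6% for endothelium (11 genes). Epithelium stood at 46.6%, 51.4%, 24.8% and 19.7% (7 genes) and blood at 17.8%, 17.7%, 5.52% and 2.43% (5 genes). Arrays 1 and 2 were alike within each list, and arrays 3 and 4 were below them in every one of these 5 lists. Fibroblast and matrix genes had it as well, at 17.8%, 20.4%, 10.3% and 6.55% (5 genes). Some lists did not: the medians were 25.1%, 17.5%, 21.7% and 34.1% for primitive streak and mesoderm (7 genes), 34.3%, 51.9%, 49.9% and 65.0% for neural ectoderm (4 genes) and 53.3%, 34.7%, 27.3% and 43.4% for macrophages and white cells (6 genes). Over all 3654 genes called higher in the Stella-negative cells the median was 54.0%, 55.7%, 56.6% and 60.9%, with no such gap.

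**Figure D3:**
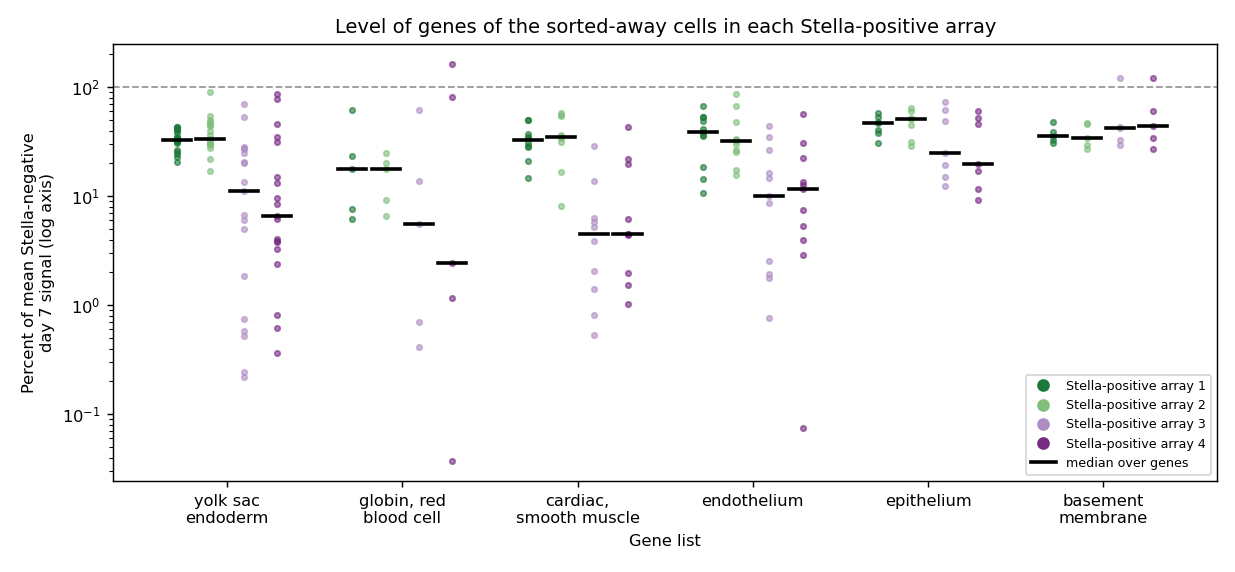
Points show, for members of 6 gene lists called higher in Stella-negative day 7 cells than in Stella-negative ESC, the signal on each Stella-positive array as a percent of the mean of the 2 Stella-negative day 7 arrays, on a log axis; black bars are medians over genes and the dashed line marks equality. Endoderm medians are 33.0%, 33.8%, 11.2% and 6.63% on arrays 1 to 4, and basement membrane medians are 35.8%, 34.5%, 42.2% and 44.3%.

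Basement membrane genes of parietal endoderm and of many other cells did not follow. Sparc, a secreted matrix protein, read 948 and 922 on arrays 1 and 2 and 826 and 867 on arrays 3 and 4, against 1891 and 2026 on the Stella-negative arrays, and Col4a1, a type IV collagen chain, read 648 and 620.5 on arrays 1 and 2 and 615 and 565 on arrays 3 and 4, against 2025 and 2166. All 4 Stella-positive arrays were below both Stella-negative arrays in these 2 genes, which were picked for their brightness after their values were seen, and the pairs were near each other (0.14 and 0.10). The 5 called members of the list stood at a median of 35.8%, 34.5%, 42.2% and 44.3% of the Stella-negative level on arrays 1 to 4. None of 13 tested members was higher on arrays 1 and 2, while Lama1, Srgn and Fst were higher on arrays 3 and 4. Over all genes the shares were 5.22% and 5.33%. Srgn, a proteoglycan core protein, read 83 and 63.2 on arrays 1 and 2 and 283 and 280.2 on arrays 3 and 4, against 246 and 218, so that its arrays 3 and 4 were at the Stella-negative level. Lama1, a laminin chain of the first basement membranes, read 59.2 and 51.3 on arrays 1 and 2 and 152 and 162 on arrays 3 and 4, and Fst, an activin antagonist, 32.4 and 64.4 on arrays 1 and 2 and 113 and 116 on arrays 3 and 4.

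Other mesodermal lists were less divided between the pairs. Of 21 tested genes of the primitive streak and mesoderm, Hand2, Foxc2 and Msx2 were higher on arrays 1 and 2, and Msx1 was higher on arrays 3 and 4. Hand2, a factor of heart and lateral mesoderm, read 59.8 and 88.7 on arrays 1 and 2 and 19.5 and 9.48 on arrays 3 and 4, against 503 and 532 on the Stella-negative arrays, whereas Msx1, a homeobox gene, read 57.6 and 59.6 on arrays 1 and 2 and 116 and 149.8 on arrays 3 and 4. Of 17 fibroblast and matrix genes, Vim, Ccn2 and Igfbp5 were higher on arrays 1 and 2 and 0 on arrays 3 and 4. Igfbp5, a binding protein of insulin-like growth factors, read 235 and 270.5 on arrays 1 and 2 and 42.2 and 33.4 on arrays 3 and 4, against 1305 and 1342, although its 1 other probe set had the opposite sign. The median differences of these lists were 0.12 and 0.25, close to that of all genes. Of all genes, 5.22% were higher on arrays 1 and 2 and 5.33% on arrays 3 and 4.

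Early germ cell genes, with a median pair difference of 0.34, are described next. Dppa3, the Stella gene itself, read 807 and 728 on arrays 1 and 2 and 1078 and 1138 on arrays 3 and 4, against 74.6 and 101 on the Stella-negative arrays, so the label of the sort held on every array. Tfap2c, a factor required for germ cell specification, read 789 and 744 on arrays 1 and 2 and 516 and 494 on arrays 3 and 4, against 143 and 152. Both genes separated all 4 Stella-positive arrays from both Stella-negative arrays, with Dppa3 higher and Tfap2c lower on arrays 3 and 4. The pair differences were -0.52 ± 0.08 and 0.59 ± 0.05, under the 2-fold rule. That for Dppa3 was -0.08 under median centring, and that for Tfap2c was 1.03, so the first gap closed and the second passed 2-fold under that scaling.

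Of 10 early germ cell genes tested, 0 were higher on arrays 1 and 2 and 1, Alpl, was higher on arrays 3 and 4. Over all genes the shares were 5.22% and 5.33%. Alpl, the tissue-nonspecific alkaline phosphatase long used to stain germ cells, read 242 and 216 on arrays 1 and 2 and 371 and 743 on arrays 3 and 4, and array 4 stood above array 3. Prdm1, a repressor of the somatic programme, was flat at 153, 162, 139 and 112 on arrays 1 to 4, against 173 and 151 on the Stella-negative arrays. Prdm14, its partner in specification, read 259.6, 254, 192 and 204 on arrays 1 to 4, against 133 and 108. Kit, a receptor of migrating germ cells, read 236, 277, 280.4 and 176 on arrays 1 to 4, and Ifitm3, a surface protein of early germ cells, read 1396 and 1364 on arrays 1 and 2 and 864 and 771 on arrays 3 and 4. Prdm14, Kit and Ifitm3 did not reach 2-fold between the pairs.

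Later germ cell and meiosis genes went in both directions. Of 26 tested, 6 were higher on arrays 3 and 4 (Rec8, Stra8, Dmrt1, Tdrd9, Tex14 and Sohlh2) and 2 on arrays 1 and 2 (Sycp3 and Tdrd7). Over all genes the shares were 5.33% and 5.22%. Stra8, which licenses entry into meiosis, read 242 and 228 on arrays 1 and 2 and 635 and 613 on arrays 3 and 4, against 94.2 and 88.4 on the Stella-negative arrays. Dmrt1, a factor of germ cells and testis, read 195 and 186 on arrays 1 and 2 and 512 and 362 on arrays 3 and 4, against 50.8 and 35.6. Both were higher from group to group, from the Stella-negative arrays to arrays 1 and 2 and then to arrays 3 and 4. There was no overlap at either step, which for the second step is part of the rule. Their pair differences were -1.37 ± 0.05 and -1.14 ± 0.25.

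Sohlh2, a transcription factor of germ cell differentiation, read 247 and 257 on arrays 1 and 2 and 621 and 583 on arrays 3 and 4, and Tex14, a protein of germ cell bridges, 245 and 281 on arrays 1 and 2 and 542 and 570.2 on arrays 3 and 4. Rec8, a meiotic cohesin, read 18.3 and 30.7 on arrays 1 and 2 and 184 and 45.4 on arrays 3 and 4, with array 3 far above array 4, and Tdrd9, a helicase of the piRNA pathway, was dim at 18.2, 9.08, 42 and 58.5 on arrays 1 to 4. Under median centring the pair difference was -0.93 for Stra8, -0.70 for Dmrt1, -0.78 for Sohlh2 and -0.61 for Tex14, and 0 members of the list were then counted as higher on arrays 3 and 4. Quantile normalization left 5. Sycp3, of the synaptonemal complex, was the reverse case at 364 and 300 on arrays 1 and 2 and 135 and 135 on arrays 3 and 4, against 139 and 149.8. Germ cell genes with overlapping pairs included Dazl, an RNA-binding protein, at 453, 520.4, 867 and 512 on arrays 1 to 4, and Smc1b, a meiotic cohesin, at 177, 155, 133 and 227 on arrays 1 to 4. Ddx4, the germ cell helicase Vasa, read 103, 121, 71.4 and 71.8 on arrays 1 to 4, against 32.9 and 32.4.

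Most pluripotency genes were counted on neither side, as were 12529 of all 14007 genes. Their median pair difference was 0.46, against -0.01 over all genes. Pou5f1, the gene of Oct4, read 1083 and 1093 on arrays 1 and 2 and 939.8 and 937 on arrays 3 and 4, against 289 and 309 on the Stella-negative arrays, and the pairs differed by only 0.21 ± 0.01. Sox2 read 3264, 2719, 2418 and 2745 on arrays 1 to 4, and Nanog 1597, 1591, 1408 and 876 on arrays 1 to 4. Of 26 tested members 1 was counted: Lin28a, an RNA-binding protein that blocks maturation of let-7 microRNAs, read 536 and 526 on arrays 1 and 2 and 82.5 and 97.7 on arrays 3 and 4, against 1607 and 1639. Its order across arrays was that of the endoderm genes, not that of Pou5f1. Under median centring 11 of the 26 were counted as higher on arrays 1 and 2, as were 1697 of all 14007 genes. Of 17 proliferation genes, 0 were counted on either side, against 5.22% and 5.33% of all genes.

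**Figure D4:**
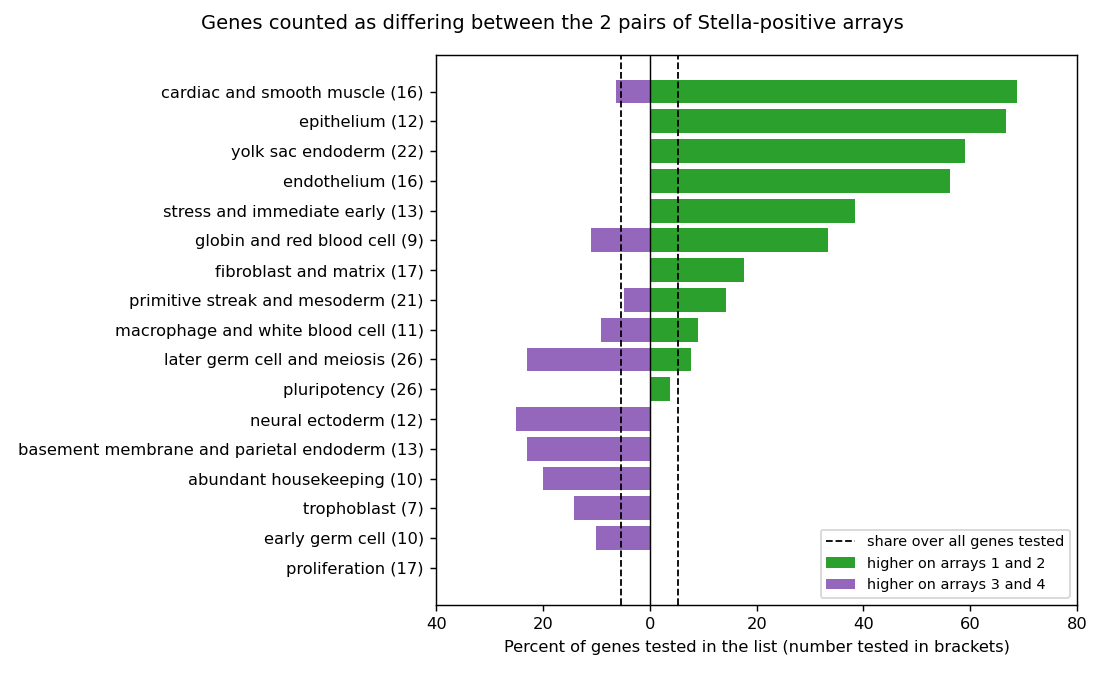
Bars give the percent of tested genes of each list counted as higher on arrays 1 and 2 (right, green) or on arrays 3 and 4 (left, purple), with the number tested in brackets; dashed lines mark the share over all 14007 genes, 5.22% and 5.33%. Heart and smooth muscle (11 of 16), epithelium (8 of 12), endoderm (13 of 22) and endothelium (9 of 16) have the longest bars on the right.

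Genes counted on either side were dimmer than genes at large, those higher on arrays 3 and 4 the more so. Of all 14007 genes, 6746 (48.2%) had a mean signal over the 4 arrays above the common trimmed mean. The number was 91 (12.2%) of the 747 higher on arrays 3 and 4 and 210 (28.7%) of the 731 on the other side. In 6 bins of equal size by mean signal on the 9 other arrays, the share of genes higher on arrays 3 and 4 went from 16.7% in the dimmest bin through 8.48%, 3.38%, 1.80% and 0.90% to 0.73% in the brightest. The share higher on arrays 1 and 2 had no such course, at 4.80%, 6.51%, 7.41%, 5.14%, 3.47% and 3.98%. The dimmest bin alone held 390 of the 747. Scaling by the trimmed mean left the median signal at 29.6, 31.0, 35.8 and 47.9 on arrays 1 to 4, so dim probe sets read higher on the dim arrays as a whole.

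The spread within pairs followed signal too. The SD over genes of the difference between arrays 3 and 4 was 1.20 in the dimmest bin and 0.343 in the brightest, against 0.778 and 0.177 for arrays 1 and 2 and 0.935 and 0.220 for the Stella-negative arrays. Arrays 3 and 4 were the wider pair in every bin. A total of 226 genes (1.61%) were higher in steps of 0.5 or more as the arrays grew dimmer, and 211 of the 747 were among them, while 178 of the 731 stepped down. Arrays 3 and 4 lay within 0.5 of each other for 288 of the 731 and 321 of the 747. The 3 actin control probe sets did not shift as one: the pair difference was -0.18 at the 3' end, 0.73 in the middle and 1.07 at the 5' end of the transcript. The Gapdh control probe sets spanned less, at -0.47, -0.08 and 0.08 in the same order. The part of probe position in the gene counts was not tested.

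**Figure D5:**
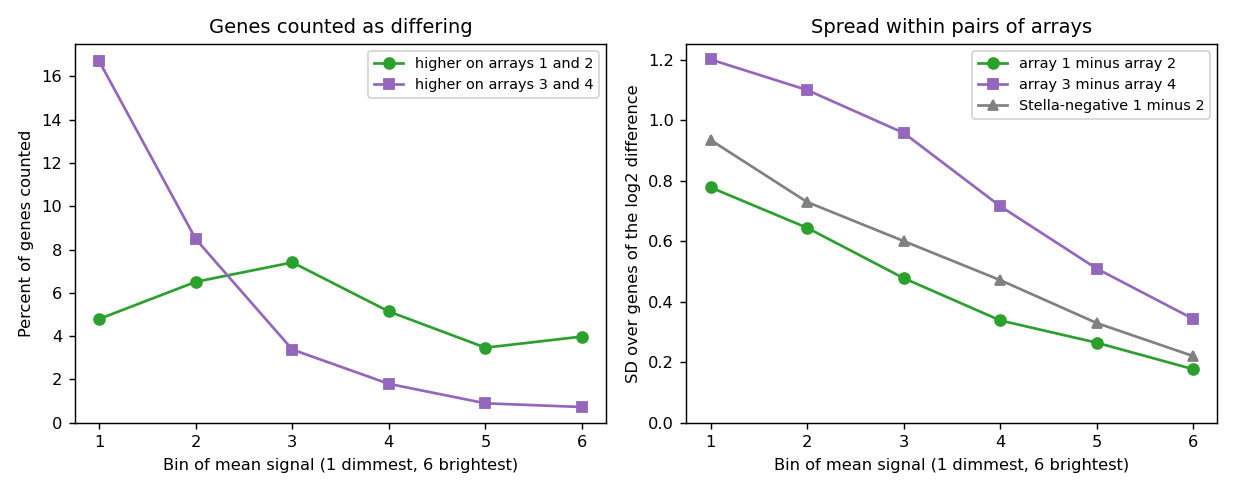
Left, the percent of genes counted as higher on arrays 1 and 2 (green) or arrays 3 and 4 (purple) in 6 bins of mean signal on the 9 other arrays; right, the SD over genes of the log2 difference within each pair of arrays in the same bins. The purple share goes from 16.7% in the dimmest bin to 0.73% in the brightest.

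The largest differences toward arrays 3 and 4 among brighter genes were in genes of several tissues. Tnni2, fast skeletal troponin I, led at 16.2 and 6.54 on arrays 1 and 2 and 139.7 and 406 on arrays 3 and 4, and array 4 stood apart from array 3. Prtg, protogenin of the early neural plate and mesoderm, read 172 and 167 on arrays 1 and 2 and 987 and 751 on arrays 3 and 4, against 462 and 461 on the Stella-negative arrays. Crabp1, a retinoic acid binding protein, read 36.5 and 51.6 on arrays 1 and 2 and 204 and 167 on arrays 3 and 4, Axin2, a target and inhibitor of Wnt signalling, 87.5 and 65.6 on arrays 1 and 2 and 248 and 263 on arrays 3 and 4, and Cox7a1, a subunit of cytochrome oxidase, 183 and 133 on arrays 1 and 2 and 480.0 and 525 on arrays 3 and 4. These 5 genes were picked among those counted, so the lack of overlap between their pairs follows from the rule. The rest of the 10 largest, beside Srgn, were Nfix, Gtpbp2, Nnat and Ces5a, with differences of -2.44, -1.92, -1.67 and -1.61. Neural genes on that side, Pax6, Zic1 and Map2, were dim, with Zic1 at 14.1, 33.7, 108 and 71.3 on arrays 1 to 4 and Pax6 at 20.5, 4.11, 40.9 and 70.2 on arrays 1 to 4. The single trophoblast gene counted, Cdx2, read 2.93, 3.70, 42.5 and 6.0 on arrays 1 to 4, and array 3 alone was high.

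Abundant transcripts differed as well. Eef1a1, a translation elongation factor, read 16149 and 18622 on arrays 1 and 2 and 35270.0 and 44118 on arrays 3 and 4, and Tpt1, a translationally controlled protein, read 14511 and 17168 on arrays 1 and 2 and 34594 and 45425 on arrays 3 and 4. Both were counted as higher on arrays 3 and 4 (-1.19 and -1.33), but quantile normalization brought Eef1a1 to -0.08 and Tpt1 to -0.28. The 100 brightest probe sets held 15.3%, 16.6%, 23.7% and 26.5% of the signal on arrays 1 to 4. Actb, beta actin, was level at 13774, 13372, 10910.0 and 17606 on arrays 1 to 4.

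The day 7 sort was tested over all 4 arrays. In that comparison, a limma fit to the 13 arrays called 1434 genes (10.2%) higher and 1270 (9.07%) lower in Stella-positive than in Stella-negative cells, at an adjusted p under 0.05. The fit uses the Stella-positive arrays and is not independent of the pair difference, and differences given for each pair share their Stella-negative arrays and carry no test, since the pairs were chosen by such values. Leaving out Stella-negative array 1 lowered these counts to 435 and 210, leaving out array 2 of that group to 679 and 319, and the fluidics run as a block to 567 and 325.

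Ttr and Afp were lower in the sorted cells over all 4 arrays, calls that several settings removed. Ttr fell by 4.65 (SE 1.34, limma adjusted p = 0.026), and its difference was -1.55 for arrays 1 and 2 and -7.74 for arrays 3 and 4. Afp fell by 4.19 (SE 1.29, limma adjusted p = 0.036), with -1.19 and -7.18 for the pairs. The calls of Ttr and Afp were lost without either Stella-negative array and with the fluidics run as a block. That block sets Stella-positive arrays 1 to 3 against Stella-negative array 2 alone. The within-run differences were -3.88 (SE 1.80) for Ttr and -3.07 (SE 1.5) for Afp. Both calls were also lost under median centring (limma adjusted p = 0.0511 and 0.0704), with the replicate block by the titles' numbers (0.0935 and 0.116) and with array weights (0.0533 and 0.0755). That of Afp was lost as well with a constant 4 times smaller (0.0512), with no filter (0.0546), without Stella-positive array 3 (0.0865) and without array 4 (0.0552). Hbb-y fell by 5.49 (SE 0.77, limma adjusted p = 0.00027), with -3.88 for arrays 1 and 2 and -7.10 for arrays 3 and 4, and kept its call with the run as a block (-4.76, limma adjusted p = 0.0071). Of the 9 blood genes tested, 3 were called lower, Hbb-y, Hbb-bh1 and Hba-x, and 0 higher, while Hba-a1 had a sort difference of 0.06 (limma adjusted p = 0.955).

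By list, 16 of 22 endoderm genes were lower and 0 higher in the sort over all 4 arrays, against 9.07% and 10.2% of all genes. With the fluidics run as a block, only Apoc2, Amn, Dab2 and Foxa1 of the 16 kept their call (limma adjusted p = 0.0498, 0.033, 0.028 and 0.035). Lrp2, an endocytic receptor, and Ttpa, a carrier of vitamin E, were not among the 16. Heart and smooth muscle gave 11 of 16 lower and 0 higher, and epithelium 5 of 12 lower (Krt8, Cldn6, Cldn7, Spint1 and Ocln) and 0 higher. Myl4, Myl7, Tnnt2 and Actc1 lost their calls with the run as a block (limma adjusted p = 0.113, 0.122, 0.153 and 0.068). Cldn4 was not called, and its difference was 0.94 for arrays 1 and 2 and -1.05 for arrays 3 and 4.

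Germ cell genes with a sort call went the other way. Dppa3 rose by 3.26 (SE 0.26, limma adjusted p = 4.1e-06), with 2.99 for arrays 1 and 2 and 3.52 for arrays 3 and 4. Tfap2c rose by 2.0 (SE 0.25, limma adjusted p = 0.00012). Of 10 early germ cell genes, 4 rose and 0 fell, against 10.2% and 9.07% of all genes, and 6 had no call. Prdm1, Prdm14, Kit and Ifitm3 were without a call (limma adjusted p = 0.655, 0.0706, 0.142 and 0.185). Of 26 later germ cell genes, 11 rose and 0 fell, against the same shares of all genes. Among them, Dazl and Ddx4 lost their calls with the fluidics run as a block and without either Stella-negative array. Smc1b and Dmrt1 kept theirs in these settings. Stra8 rose by 1.95 (SE 0.40, limma adjusted p = 0.0035), with 1.27 and 2.64 for the pairs. Pluripotency genes gave 14 of 26 higher and 1, Lin28a, lower. Sox2 rose by 1.09 (SE 0.21, limma adjusted p = 0.0026), a call lost without Stella-negative array 1 or with the run as a block.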

How the data were processed

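RNA was measured on 13 Affymetrix Mouse430_2 arrays, 1 per sample. The deposited table holds linear signal intensity per probe set, made by the authors with MAS5 per the submitters' processing notes; neither its version nor its target intensity is stated in the sources. The array description files gave run and lot, and no expression value was used from them. Of 45101 probe sets, 64 controls were left out of tests and 30023 were kept, those whose signal passed their array's median on 2 or more arrays. Platform annotation gave 1 symbol to 34945, several to 932 and none to 9160. The probe set with the highest mean scaled signal stood for its gene. No 2 columns were identical (0 pairs). Each array was scaled to a common 2% trimmed mean of 105.2, and 10.5 was added before log2.

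Tests were limma 3.58.1 (R 4.3.3; lmFit, eBayes with trend) with Benjamini-Hochberg adjustment over all kept probe sets, threshold 0.05, with a tool check on simulated data; pandas 2.3.3 and numpy 2.4.6 did the rest. Standard errors are limma's, and a ± beside a pair difference is the SD within pairs. Deviations of Stella-positive and Stella-negative day 7 arrays with the same title number had correlations of -0.017 for number 1 and -0.010 for number 2. Arrays 3 and 4 have no Stella-negative array of their title number. By the array files' numbers the correlations were -0.012 for number 1 and -0.011 for number 2. With 2 Stella-negative arrays the deviations are mirror images, so the check cannot decide on pairing. The main tests used no pairing. The arrays, gene lists and genes were chosen with earlier results of these data known. Named genes were the 10 largest pair differences per side among genes brighter than the common mean, up to 4 per list, and a fixed set; any others are members of a stated count, or were chosen after their values were seen. Gapdh had no usable non-control probe set. MAS5 detection calls were not used here, so values under about 10.5 have no order. The number of arrays limits the precision.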

Additional observations from a re-analysis of the deposited data

Results flagged for a closer look

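Among 77 named genes screened for 1 array far from the other 3 of the Stella-positive group, 1 was picked out, and chance alone picks out about 1 in 20 such groups. It was Cdx2, a trophoblast and posterior mesoderm factor, for which array 3 stood apart: its gap to the nearest array was 0.850 of the group's range, more than Dixon's 95% limit for 4 arrays. The signals were 2.93, 3.70, 42.5 and 6.0 on arrays 1 to 4, and 46.1 and 15.1 on the Stella-negative arrays.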

How the results depend on the processing

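The pairs were compared under other settings with these values. Genes higher on arrays 1 and 2 (731) and on arrays 3 and 4 (747) numbered 1697 and 269 under median centring, 1015 and 484 under quantile normalization, 219 and 140 with a constant 4 times larger, and 1267 on the second side with no filter; leaving out 1 array gave 843 to 1585 and 749 to 1709, the highest in both cases without array 3. Of the 747, 269 were also counted under median centring and 470 under quantile normalization. The endoderm median (1.16) was 1.51 and 1.37 under those scalings, 1.40 and 0.78 with a constant 4 times smaller and larger, 0.66 as the mean of all probe sets and 0.77 to 1.63 with 1 array left out. The early germ cell median (0.34) was 0.71, 0.39, 0.25 with the larger constant and 0.32 to 0.49 with 1 array left out; the later germ cell median (-0.14) turned to 0.23 and 0.0011 under the scalings and was -0.38 to -0.0060 with 1 array left out; the blood median turned from -0.54 to 0.18 without array 4 (-0.64 to 0.18 with each array left out in turn). The share of the Stella-negative level on arrays 1 and 2 was 48.1% and 32.5% for endoderm (33.4%) and 25.6% and 20.03% for blood (17.7%) under the 2 scalings, chosen after seeing the data.

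Sort calls lower (1270) were 371 under median centring; leaving out 1 array gave 435 to 1677 higher and 210 to 1546 lower, and the fluidics run as a block 567 and 325. With the replicate block 1421 were higher and 1114 lower by the titles' numbers, and 1077 and 1025 by those of the array files. Stella-negative day 7 calls (3654 higher, 2636 lower) were 1146 and 5531 under median centring. Genes with no sort call changed sign: Hba-a1 to -0.47 with arrays 1 and 2, -0.20 in the replicate block, -0.18 with array weights and between -0.66 and 0.78 with 1 array left out; Prdm1 to 0.094 under median centring, 0.0062 in the replicate block and 0.0014 in the run block; Actb to -0.45 under quantile normalization, -0.095 and -0.021 in the replicate blocks, -0.11 in the run block, -0.0067 with weights and between -0.092 and 0.14 with 1 array left out. The other sort values gave 332 of the same call, 52 weaker and 8 stronger. The causes were not tested. Dim signal on arrays 3 and 4 limits every low value.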

Other observations

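Stress genes also differed between the pairs. Of 13 tested, 5 (Fos, Atf3, Hspa1a, Hspa1b and Hmox1) were higher on arrays 1 and 2 and 0 on arrays 3 and 4. The shares over all genes were 5.22% and 5.33%. Hspa1a, an inducible heat shock protein, read 889 and 884 on arrays 1 and 2 and 77.1 and 84.2 on arrays 3 and 4, against 382 and 367 on the Stella-negative arrays, a pair difference of 3.30 ± 0.06. Hspa1b, its near-identical neighbour whose probes may share signal, read 2625 and 2658 on arrays 1 and 2 and 517 and 374 on arrays 3 and 4, against 1200.4 and 1143. Arrays 1 and 2 were above the Stella-negative arrays in both genes and arrays 3 and 4 were below them, an order that no endoderm gene named above had. Fos, an immediate early gene, read 747 and 729 on arrays 1 and 2 and 273 and 169 on arrays 3 and 4, against 642 and 647, and Hmox1, a haem-degrading enzyme, read 132 and 164 on arrays 1 and 2 and 24.6 and 59.5 on arrays 3 and 4, against 156 and 151. Over all 4 arrays the sort called Gadd45b higher and Atf3 lower among the 13. The count of 5 became 8 under median centring and 6 under quantile normalization, and was 5 without array 3 and 6 without array 4. Over all genes the 731 became 1697, 1015, 1585 and 864 in turn.

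Ccn2, a matricellular growth factor target, was another gene above the Stella-negative level on arrays 1 and 2 and below it on arrays 3 and 4, at 532 and 528 on arrays 1 and 2 and 107 and 84.3 on arrays 3 and 4, against 341 and 323. Clic6, a chloride channel protein, read 373 and 395 on arrays 1 and 2 and 103 and 28.1 on arrays 3 and 4, against 990.3 and 1091, in the order of the endoderm genes.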
